A study of Mus musculus with 62 samples.

Results

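The guanylate binding proteins of the mouse were followed through liver, prefrontal cortex and striatum of female mice that had been dosed with polychlorinated biphenyls (PCBs). The group holds 10 genes, Gbp2 to Gbp11, found by their Entrez gene identifiers among 16206 genes listed for liver, 17653 for prefrontal cortex and 17874 for striatum. All 10 were listed in each tissue. Gbp11 was picked for its rise on the liver data, so its liver values against vehicle are given as a description with no test, and the other 9 were taken as its family. All mice were C57BL/6 females that received the MARBLES mixture of PCBs by mouth at 0.1, 1 or 6 mg/kg, or vehicle (0 mg/kg). RNA from the 3 tissues was sequenced, which gave 4 vehicle, 4 0.1 mg/kg, 6 1 mg/kg and 6 6 mg/kg libraries of liver, and 4, 5, 6 and 6 of each brain region. The mice's age, the number and spacing of doses and the hour of killing were not given in the sources used here, and nothing in them states whether a library pools animals. A library is called here by its tissue and the number in its title.

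Guanylate binding proteins are large GTPases whose genes are switched on by interferon gamma and, less strongly, by type I interferons, through transcription factors that include those of the IRF family. They assemble on the membranes of intracellular bacteria and of parasite vacuoles, help to break them open, and expose microbial products to inflammasomes. In the liver they are made by hepatocytes, endothelial cells and resident macrophages (Kupffer cells) after an interferon signal, and in the brain mainly by microglia, endothelial cells and astrocytes.

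In the GRCm38.p6 annotation (the build also called mm10) the members lie in 2 clusters. Gbp5, Gbp7, Gbp3 and Gbp2 lie in this order on the plus strand of chromosome 3, between 142496934 and 142638008, a span of 141.1 kb. Gbp8, Gbp9, Gbp4, Gbp10, Gbp6 and Gbp11 lie on the minus strand of chromosome 5, between 105012513 and 105346476, a span of 334.0 kb. Gbp11 (Entrez 634650, chromosome 5, 105323026 to 105346476) is at one end of that cluster and Gbp6 (105270702 to 105295871) is its neighbour. RefSeq classes Gbp11 as a transcribed pseudogene and GENCODE as a polymorphic pseudogene, while the other 9 are protein coding in both.

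The RefSeq promoter table for GRCm38.p6 (250 bases before to 50 after each start) held entries for the 4 chromosome 3 members. The 6 chromosome 5 members, Gbp11 among them, are named only. Each chromosome 3 member had at least 1 promoter that held GAAA followed after any 2 bases by a second GAAA, the core of the interferon-stimulated response element, bound by factors of the IRF family. The search covered both strands and counted overlapping matches. These stretches are shown because that element is the textbook link between interferon and this family. They are printed from 5′ to 3′ on the plus strand, and the capitals mark the matches, which read TTTC, 2 bases and TTTC in this direction.
Gbp5 (chr3:142496739-142496808): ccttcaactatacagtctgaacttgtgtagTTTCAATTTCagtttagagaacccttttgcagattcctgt
Gbp7 (chr3:142530253-142530322): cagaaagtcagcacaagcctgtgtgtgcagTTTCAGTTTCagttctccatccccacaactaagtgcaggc
Gbp3 (chr3:142559975-142560015): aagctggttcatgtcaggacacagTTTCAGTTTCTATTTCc
Gbp2 (chr3:142620574-142620643): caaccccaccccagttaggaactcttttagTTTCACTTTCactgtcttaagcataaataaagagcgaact

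The match lay 165 to 156 bases before the annotated start in Gbp5, 53 to 44 in Gbp7 and 59 to 50 in Gbp2. In Gbp3 2 matches overlapped, and the nearer one lay 39 to 30 bases before the start of the promoter that holds it, while a second annotated Gbp3 promoter had no match. Of the 5 promoters of these members 4 held the letters, against 3.44% of all 32851 promoters of the same length. The gamma-activated site TTCNNNGAA, a palindrome searched on both strands, was matched in the promoters of Gbp5 and Gbp7, 2 of the 5, against 8.30% of all promoters. A match is a string of letters and no evidence of binding in these tissues.

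Because family members resemble each other, reads can be assigned to the wrong one. Of all windows of 50 bases in the longest annotated transcript, 82.5% of those of Gbp10 and 59.7% of those of Gbp6 also occur in transcripts of other genes, most of them in Gm43302 and in each other. Windows of Gbp11 were shared to 19.2%, mainly with Gbp8 and Gbp4, and at 100 bases the share was 5.13%. In Gbp2, Gbp3, Gbp5 and Gbp9 the share at 50 bases was between 2.07% and 8.31%, and it was 12.8% in Gbp4, 12.9% in Gbp7 and 18.2% in Gbp8. How the authors' counting treated reads with several matches is not given in the sources used here, so the values of Gbp10 and Gbp6 are uncertain as values of single genes.

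The libraries held 7.38 to 10.2 M counted reads in liver, 8.72 to 12.1 M in prefrontal cortex and 8.28 to 12.02 M in striatum. Levels are given as CPM, the reads of a gene per M of counted reads, with library sizes scaled by TMM within each tissue. Summed markers matched the labelled tissues, apart from Ttr in striatum. The 8 hepatocyte genes, such as Alb, reached 81466 to 183393 CPM in liver, 1.72 to 35.4 in prefrontal cortex and 1.76 to 4103 in striatum, where 5 of the 8 are listed in each brain region. The high brain sums came from Ttr (transthyretin), a gene that the choroid plexus also makes in bulk, and without it the sums were at most 1.56 and 1.73 CPM. The 8 neuronal genes reached 7056 to 8090 CPM in prefrontal cortex, 4258 to 6698 in striatum and 9.09 to 72.1 in liver. The filter on low counts kept all 10 members in liver and 8 in each brain region, where Gbp8 and Gbp11 fell below it. In bulk tissue, more cells of a type and more RNA per cell cannot be told apart.

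In the livers of vehicle mice every member had reads in all 4 libraries. Per kb of annotated exon, which allows a comparison between genes, Gbp3 was highest at 5.34 ± 1.01 CPM (SD, n = 4), followed by Gbp10 at 3.46 ± 1.09 and Gbp7 at 3.02 ± 0.862. The ranges of these 3 overlapped or nearly touched, from 3.95 to 6.35 for Gbp3, 1.85 to 4.27 for Gbp10 and 1.74 to 3.56 for Gbp7. Gbp2 (1.96 ± 0.592) and Gbp6 (1.92 ± 0.545) formed a middle pair whose ranges overlapped. Gbp11 (0.854 ± 0.0730), Gbp9 (0.799 ± 0.166), Gbp8 (0.681 ± 0.232) and Gbp4 (0.588 ± 0.127) were lower and overlapped from one to the next. Gbp5, which in mice activates the NLRP3 inflammasome in macrophages, was lowest at 0.133 ± 0.0283. Every library of Gbp5 lay below every library of the other members on this scale. The length is the union of annotated exons, so a gene with rarely used exons is understated.

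**Figure D1:**
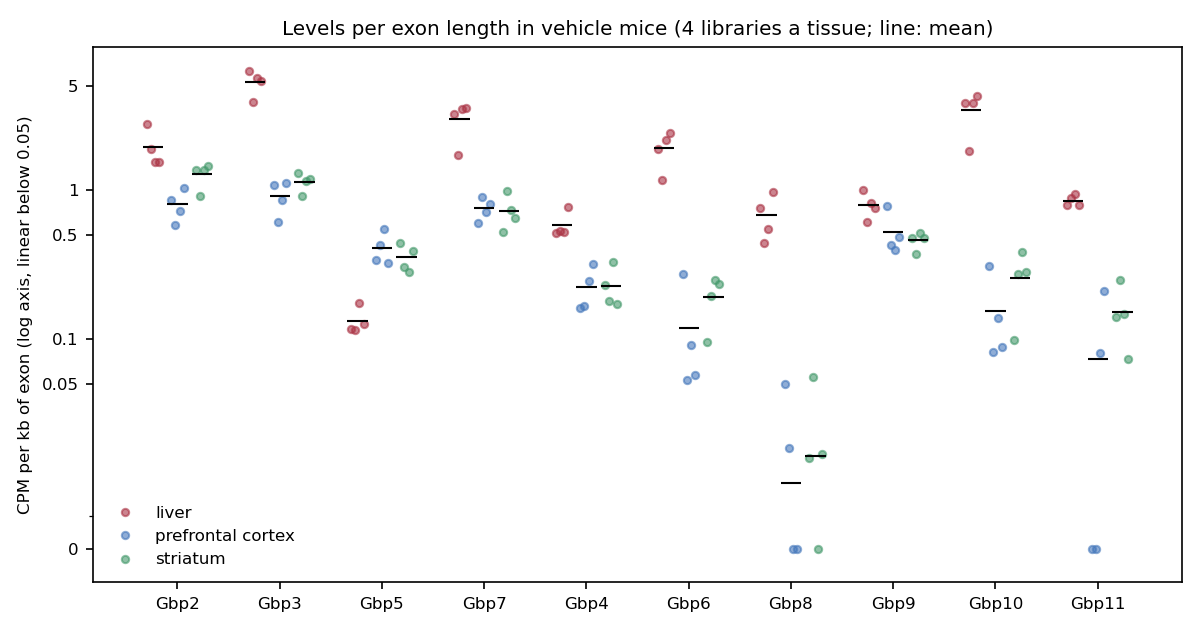
CPM per kb of annotated exon (log axis, linear below 0.05) of each member in the 4 vehicle libraries of liver, prefrontal cortex and striatum, with points for libraries and lines for means. Liver points lie above the brain points in most members, with levels scaled within each tissue, while Gbp5 is lower in liver than in the brain regions, and Gbp8 and Gbp11 reach 0 in some brain libraries.

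Liver and prefrontal cortex differed in the levels of most members in vehicle mice, as they did in most genes. In vehicle mice 7 of the 8 members above the filter in both tissues were higher in liver than in prefrontal cortex at an adjusted p under 0.05 (edgeR quasi-likelihood test, Benjamini-Hochberg over 13838 genes), where 84.9% of all genes tested differed in either direction. Of the 13838 genes 5386 were called higher in liver and 6366 lower. With libraries of both tissues scaled together, the median log2 difference was 2.63 over these 8 and -0.19 over all genes. Gbp10 differed most of the 8, by 5.29 on the log2 scale (SE 0.383), then Gbp6 by 4.81 (SE 0.402), Gbp3 by 3.46 (SE 0.219) and Gbp7 by 2.93 (SE 0.239). The differences of Gbp4 (2.33), Gbp2 (2.21) and Gbp9 (1.52) were smaller. Gbp6 had 3 to 19 and Gbp10 3 to 14 reads per library in vehicle prefrontal cortex. They were above its filter with all dose groups, but entered this vehicle comparison mainly through their liver reads. Both are counted in the 7, and the size of their differences is a description. Gbp5 had the opposite sign, and its call turned on the scaling. It did not pass with the tissues scaled together by TMM (log2 -0.69, SE 0.333, edgeR adjusted p = 0.068) and was lower in liver with library totals alone (-1.39, SE 0.335, edgeR adjusted p = 0.00127), where the median over all genes was -0.89. That setting was chosen after seeing the data, and the other 7 were called higher under it too. Scaled within each tissue, Gbp5 was 0.765 to 1.16 CPM in the vehicle livers and 2.17 to 3.67 in prefrontal cortex. Gbp8 and Gbp11 entered the tissue comparison through their liver reads, so their levels are given with no test. Gbp8 was 1.53 to 3.34 CPM in vehicle livers and 0 to 0.173 in prefrontal cortex (3 reads in 4 libraries), and Gbp11 was 2.13 to 2.53 and 0 to 0.571 (7 reads). Between striatum and prefrontal cortex of vehicle mice 0 of the 8 members tested passed in edgeR, where 22.2% of all genes did. At an unadjusted p under 0.05 were 0 of the 8 and 34.5% of all genes. Their log2 differences ran from -0.28 (Gbp5) to 0.59 (Gbp2).

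At 6 mg/kg, Gbp11 transcripts in liver were several-fold above vehicle, and Gbp3 and Gbp10 rose as well. The Gbp11 level was 2.14, 2.53, 2.39 and 2.13 CPM in vehicle libraries 8, 7, 4 and 3, from 18 to 25 reads each. In the 6 mg/kg libraries it was 32.2 in library 58, 5.92 in 56, 16.1 in 55, 13.4 in 54, 8.28 in 53 and 27.98 in 52, from 61 to 275 reads. All 6 lay above all 4 vehicle libraries, and the 6 mg/kg libraries spread widely among themselves. The fitted difference was 2.90 on the log2 scale (SE 0.393), a fold change of 7.49. Per kb of exon Gbp11 moved from the sixth place among the members in vehicle liver (0.854) to the third at 6 mg/kg (6.43 ± 3.95 CPM per kb, n = 6), behind Gbp3 (10.1 ± 3.32) and Gbp10 (7.99 ± 3.42), whose ranges overlapped with it.

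Gbp11 was also above vehicle at the lower doses. It was 8.15, 4.99, 7.46 and 4.90 CPM in the 0.1 mg/kg libraries 29, 28, 25 and 23, and 7.34, 5.16, 8.17, 5.58, 6.56 and 5.45 CPM in the 1 mg/kg libraries 50, 48, 46, 45, 42 and 41. Every one of these 10 libraries lay above every vehicle library. The fitted log2 difference from vehicle was 1.46 at both doses (SE 0.408 for the lower and 0.384 for the higher). The step from 0.1 to 1 mg/kg uses no vehicle library, and there Gbp11 differed by -0.00 on the log2 scale (SE 0.349), given as a description since its liver values chose it. The 6 mg/kg group exceeded the 0.1 mg/kg group by 1.44 (SE 0.354), while library 56 (5.92 CPM) and library 53 (8.28 CPM) overlapped with or lay near the lower doses (4.90 to 8.17 CPM), the first within that range and the second just above it.

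**Figure D2:**
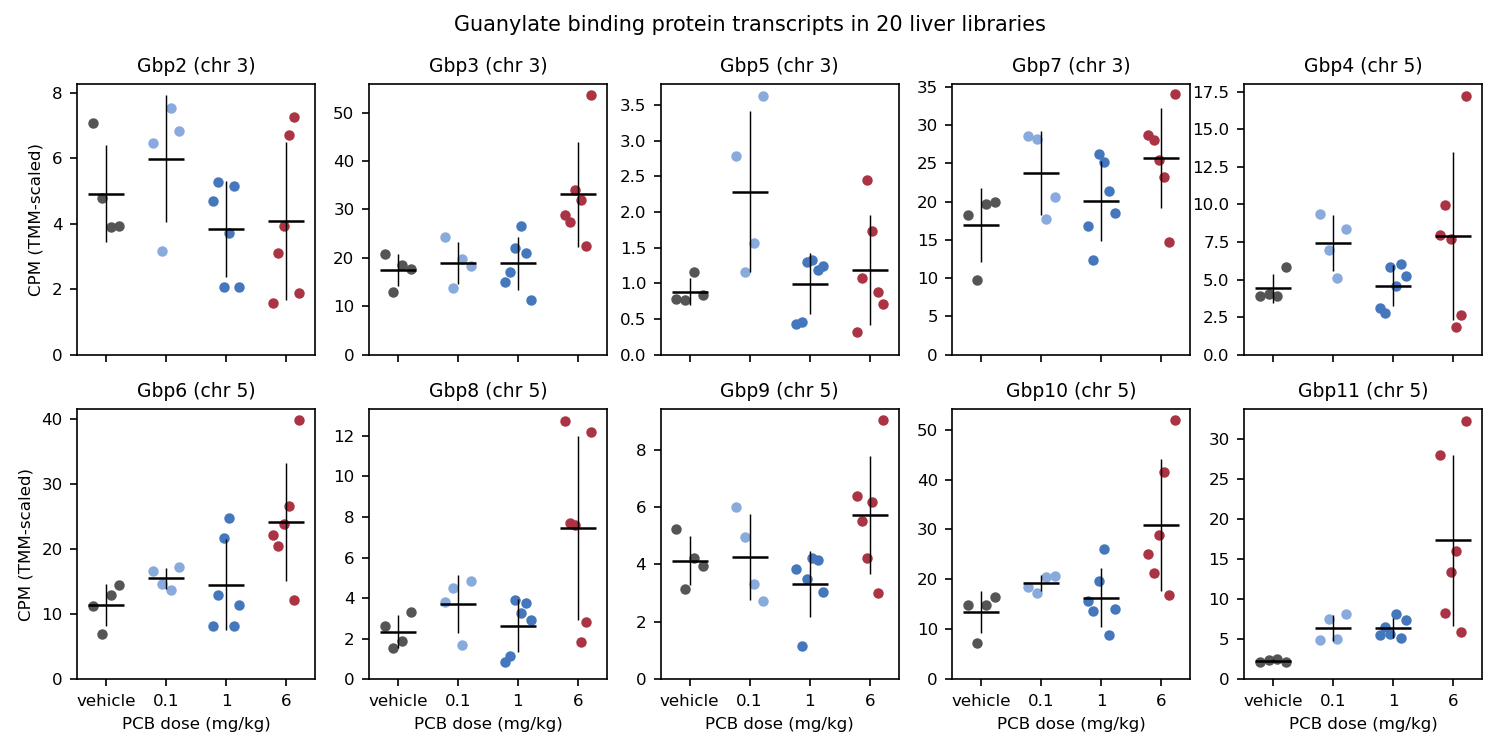
TMM-scaled CPM of each member in the 20 liver libraries, by dose of the PCB mixture in mg/kg, with points for libraries, a horizontal line for the group mean and a vertical line for ± 1 SD. Each panel has its own scale starting at 0. For Gbp11 all dosed libraries lie above the vehicle libraries (2.13 to 2.53 CPM), and for Gbp2 the groups overlap.

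Of the other 9 members, 2 rose at 6 mg/kg at an adjusted p under 0.05, against 2.8% of the 12968 genes tested in that comparison (363 genes, 234 higher and 129 lower). With Gbp11, whose liver values served to choose it, the count is 3 of 10. Gbp10, on chromosome 5, was 16.6, 14.9, 7.17 and 14.9 CPM in the vehicle libraries 8, 7, 4 and 3, and 51.9, 16.9, 41.4, 28.9, 21.4 and 25.2 CPM in the 6 mg/kg libraries 58, 56, 55, 54, 53 and 52. The groups did not overlap, although library 56 lay just above the highest vehicle library. The log2 fold change was 1.21 (SE 0.308, edgeR adjusted p = 0.041). Most of the Gbp10 sequence is shared with Gm43302 and Gbp6, so part of its reads may belong to them.

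Gbp3, on chromosome 3, was 17.6, 18.5, 12.9 and 20.7 CPM in the same vehicle libraries and 53.7, 22.5, 32.0, 34.0, 27.4 and 28.8 CPM in the same 6 mg/kg libraries. Here too all dosed libraries lay above all vehicle libraries, and library 58 stood highest. The log2 fold change was 0.92 (SE 0.245, edgeR adjusted p = 0.045). Both calls depend on single libraries and on the fit. Gbp3 was still called when library 55 or 56 at 6 mg/kg was left out, and Gbp10 when 53, 55 or 56 was, but not when any vehicle library (3, 4, 7 or 8) or 6 mg/kg library 52, 54 or 58 was left out, nor for Gbp3 without 53. Across those fits the log2 fold change stayed between 0.73 and 1.02 for Gbp3 and between 1.00 and 1.34 for Gbp10, with adjusted p up to 0.170 and 0.149. Both calls were also lost with 1 surrogate variable (edgeR adjusted p = 0.056 for Gbp3 and 0.053 for Gbp10), with only the 2 groups compared (0.083 and 0.084) and with the clock index described below, and Gbp3 with no filter on low counts (0.055).

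The remaining 7 members did not pass in liver at 6 mg/kg. Gbp8 had the next largest difference, at 1.67 on the log2 scale (SE 0.508, edgeR adjusted p = 0.070). Its vehicle libraries spanned 1.53 to 3.34 CPM, and the 6 mg/kg libraries were 12.2 (58), 2.81 (56), 1.84 (55), 7.60 (54), 7.68 (53) and 12.7 (52), so that 4 libraries lay above vehicle and 2 within its range. Gbp6 differed by 1.09 (SE 0.323, edgeR adjusted p = 0.066), with 6.98 to 14.5 CPM in vehicle and 12.1 to 40.0 at 6 mg/kg, where library 56 overlapped with vehicle. Gbp4 gave 0.84 (SE 0.428), Gbp7 0.60 (SE 0.247), Gbp9 0.47 (SE 0.327) and Gbp5 0.41 (SE 0.515). At 6 mg/kg Gbp4 ran from 1.84 CPM in library 55 to 17.2 in library 58. Gbp2, an interferon gamma target that helps to lyse Salmonella vacuoles, was the single member with a negative estimate (-0.27, SE 0.391, edgeR adjusted p = 0.71), from 3.91 to 7.07 CPM in vehicle and 1.57 to 7.28 at 6 mg/kg. In the libraries 58 and 52, where Gbp11 was highest, Gbp2 was lowest, at 1.87 and 1.57 CPM.

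Without Gbp11 the median log2 difference of the 9 members was 0.84, against 0.023 over all genes. Of the 9 estimates 8 were positive, as were 51.9% of those of all genes. The median was 0.36 with 1 surrogate variable, 0.38 with the clock index and 0.52 without library 58. At an unadjusted p under 0.05, 5 of the 9 passed (Gbp3, Gbp6, Gbp7, Gbp8 and Gbp10), where 24.2% of all genes did. Counted by libraries alone, 2 of these 9 (Gbp3 and Gbp10) had every 6 mg/kg library above every vehicle library, as had 3.26% of all genes. At 1 mg/kg 0 of the 9 had this, against 0.848% of genes, and at 0.1 mg/kg 1 did (Gbp10), against 2.14%. Gbp11 had it at each dose, which belongs to the pattern it was picked for.

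**Figure D3:**
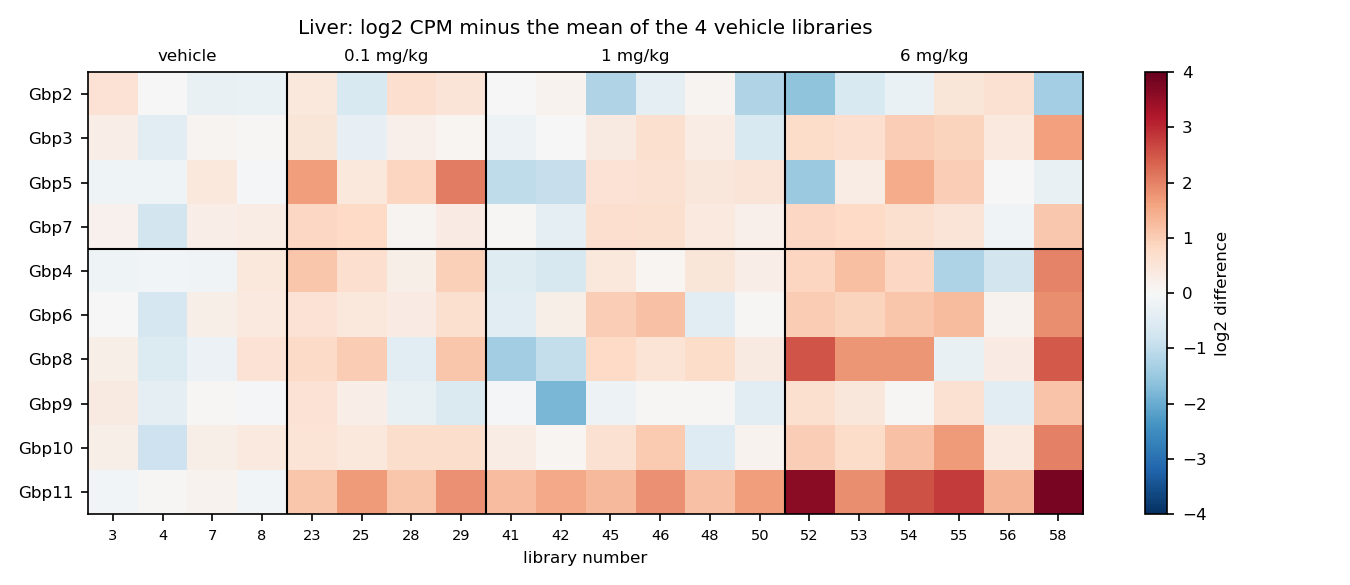
Difference of log2 CPM from the mean of the 4 vehicle libraries for each member (rows, chromosome 3 above the line and chromosome 5 below it) in each of the 20 liver libraries (columns, by dose and library number). Gbp11 is positive in all 16 dosed libraries, and libraries 58 and 52 combine the highest Gbp11 with the lowest Gbp2.

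At 1 mg/kg 0 of the 9 members without Gbp11 passed, and 0% of the 12968 genes did (edgeR). At an unadjusted p under 0.05 were 0 of these 9 and 8.44% of genes. The log2 differences of the members other than Gbp11 ran from -0.35 (Gbp2) to 0.35 (Gbp6). At 0.1 mg/kg 0 of the 9 passed in edgeR, where 2 genes did (0.0154%), and 1 of them (Gbp5) had an unadjusted p under 0.05, as had 4.10% of genes. All 9 estimates without Gbp11 were positive at this dose, as were 49.8% of those of all genes. The median of the 9 was 0.49, against -0.001 over all genes. Gbp5 had the largest of the 9, at 1.36 (SE 0.545, edgeR adjusted p = 0.99), from 0.765 to 1.16 CPM in vehicle to 3.62, 1.56, 1.16 and 2.78 CPM in the libraries 29, 28, 25 and 23. Library 25 overlapped with vehicle, and no vehicle library held more than 11 Gbp5 reads, so this gene was measured with little precision in liver.

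The 6 and 1 mg/kg groups were not tested against each other. Between 6 and 0.1 mg/kg 0 of the 9 without Gbp11 passed in edgeR, where 5 genes did (0.0386%), and 3 had an unadjusted p under 0.05, as had 12.8% of genes. Gbp3 was higher at 6 mg/kg by 0.80 (SE 0.244, edgeR adjusted p = 0.20), with 13.7 to 24.3 CPM at 0.1 mg/kg. Between 1 and 0.1 mg/kg 0 of the 9 without Gbp11 passed in edgeR, where 2 genes did (0.0154%), and 1 had an unadjusted p under 0.05, as had 6.52% of genes. That was Gbp5, lower at 1 mg/kg by a log2 difference of -1.20 (SE 0.485, edgeR adjusted p = 0.68), with 0.428 to 1.32 CPM there. These comparisons and those against vehicle share libraries, so their values are not independent of each other.

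The members did not move as 1 block across the 20 liver libraries. Pearson's r of log2 CPM was computed for all 45 pairs, as a description. It was highest for Gbp6 and Gbp10 (0.93, Spearman's rho 0.92), the pair that shares most sequence, and remained 0.88 after the group means were removed. Gbp4 and Gbp8 followed (r 0.82, 0.88 within groups), then Gbp3 with Gbp6 (0.81, 0.70 within groups) and Gbp3 with Gbp10 (0.80, 0.65 within groups), which lie on different chromosomes. Gbp2 went against Gbp8 (-0.58, and -0.71 within groups) and Gbp4 (-0.51, and -0.69 within groups).

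With Gbp11, r was 0.76 for Gbp10, 0.73 for Gbp6, 0.66 for Gbp3, 0.62 for Gbp8, 0.59 for Gbp7, 0.39 for Gbp9, 0.38 for Gbp4, -0.03 for Gbp5 and -0.47 for Gbp2. Several of these values rest on the libraries 58 and 52, which are farthest from the median of Gbp11. Without them r was 0.68 for Gbp10, 0.63 for Gbp6, 0.46 for Gbp3, 0.43 for Gbp7, 0.43 for Gbp5, 0.32 for Gbp8, 0.05 for Gbp9, 0.03 for Gbp4 and -0.09 for Gbp2. Within groups it lay between 0.33 (Gbp3) and 0.55 (Gbp6) for 7 members, and was -0.19 for Gbp5 and -0.59 for Gbp2. Gbp10 ranked 138 among all liver genes tested by this measure. The 5 genes most like Gbp11 were Kyat1 (r 0.90, rho 0.77), Vwa8 (r 0.89, rho 0.93), Npr2 (r 0.88, rho 0.85), Kdm6b (r 0.87, rho 0.85) and Trim12a (r 0.87, rho 0.74). Kyat1 is a kynurenine aminotransferase, Npr2 a natriuretic peptide receptor, Kdm6b a histone H3 lysine demethylase and Trim12a a TRIM family gene. Without the same 2 libraries their r lay between 0.77 (Trim12a) and 0.84 (Kyat1), and within groups between 0.61 (Trim12a) and 0.86 (Npr2). Kyat1 went from 84.7 ± 9.21 CPM in vehicle (SD, n = 4) to 188 ± 63.1 at 6 mg/kg (n = 6), and Trim12a from 7.82 ± 1.33 to 18.8 ± 5.52. All 20 points share the dose groups and the clock difference described below.

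Other interferon-linked genes were read beside the members in liver at 6 mg/kg, from lists chosen with earlier results of these data known. Of 22 further interferon targets, 11 were higher and 0 lower at an adjusted p under 0.05, against 2.8% of all genes called in either direction. The median log2 difference was 0.79, against 0.023 over all genes. These calls depended on single libraries, as a count chosen after seeing the data showed. They fell from 11 to 0 without vehicle library 3 or 4, to 3 without vehicle library 7 or 6 mg/kg library 58, to 4 without vehicle library 8 or 6 mg/kg library 52 and to 6 without 6 mg/kg library 54. With any 1 library left out, 12 to 14 of the 22 had an unadjusted p under 0.05 and 19 to 21 were positive. With the clock index 0 of the 22 passed, as did 0 of all genes, and their median log2 difference was 0.72 with 15 positive. With only the 2 groups compared 3 passed, and the median was 0.80. Ifit1, which binds foreign RNA caps, went from 7.58 ± 2.58 CPM (SD, n = 4) to 33.4 ± 15.3 (n = 6). It rose by 2.15 on the log2 scale (SE 0.417, edgeR adjusted p = 0.0134). Xaf1, a proapoptotic interferon target, rose by 1.64 (SE 0.321, edgeR adjusted p = 0.0134), and Ifit3, a partner of Ifit1, by 1.18 (SE 0.243, edgeR adjusted p = 0.0176).

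Among 17 tested genes of interferon signalling 3 were higher and 0 lower at an adjusted p under 0.05, against 2.8% of all genes called in either direction. The median log2 difference was 0.33, against 0.023 over all genes. The 3 became 0 without vehicle library 4, with the clock index or with only the 2 groups compared, 1 without vehicle library 3, and 2 to 4 without any other single library. Irf7, the main inducer of type I interferon genes, went from 52.8 ± 5.17 to 112 ± 28.6 CPM (log2 1.09, SE 0.188, edgeR adjusted p = 0.0093). Irf9, a DNA-binding factor of the type I interferon response, rose by 0.75 (SE 0.139, edgeR adjusted p = 0.0134), and Nlrc5, which switches on MHC class I genes, by 1.02 (SE 0.276, edgeR adjusted p = 0.048).

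A list of other interferon-inducible GTPases gave no call. It held the immunity-related GTPases, which are targets of interferon gamma, and Gbp2b, a guanylate binding protein gene that is not among the 10. Of 9 tested 0 passed in edgeR, 1 had an unadjusted p under 0.05, where 24.2% of all genes did, and the median log2 difference was 0.057. Igtp had 53.98 ± 10.5 CPM in vehicle and 81.1 ± 15.5 at 6 mg/kg (log2 0.59, SE 0.234, edgeR adjusted p = 0.14), Iigp1 differed by 0.37, Gm4951 by -0.85 and Gbp2b by -0.13 (SE 0.521). Of 7 inflammasome genes, the machinery downstream of the family, 0 passed in edgeR, while 3 were under 0.05 before adjustment, against the same 24.2% of all genes, namely Il18 (log2 -0.56, SE 0.192), Casp4 (1.39, SE 0.522) and Aim2 (1.21, SE 0.575). At both lower doses 0 genes of these 4 lists passed in edgeR. Hardly any gene was called there, with 0% of all 12968 passing for the middle dose and 0.0154% for the lowest. Of the 22 interferon targets 21 had a positive estimate in each of these comparisons with vehicle. The positive share over everything tested was 52.3% for the middle dose and 49.8% for the lowest.

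Markers of other cells and the clock genes moved beside these results. The summed level of 8 Kupffer cell markers was 129 to 213 CPM in vehicle livers and 174 to 365 at 6 mg/kg. It was 223 to 318 CPM at 0.1 mg/kg and 187 to 362 at 1 mg/kg. All 8 markers had reads in liver. At 6 mg/kg 6 of the 8 estimates were positive, and 1 of 8 (Clec4f) passed at log2 0.93, against 2.8% of all genes tested. Among the 6 mg/kg libraries the Kupffer sum was highest in library 58 (365), which had the highest Gbp11, and lowest in library 52 (174), which had the second-highest. The microglia list, whose 8 genes also had reads in liver, summed to 64.7 to 79.1 CPM in vehicle and 89.3 to 136 at 6 mg/kg. At 0.1 mg/kg that sum was 92.8 to 108 and at 1 mg/kg 60.8 to 155. Summed lymphocyte markers (8 genes) were 3.70 to 6.88 CPM in vehicle and 6.16 to 14.5 at 6 mg/kg, where library 58 was highest. They were 4.30 to 8.02 CPM at 0.1 mg/kg and 6.20 to 13.9 at 1 mg/kg. Summed endothelial markers were 138 to 176 CPM in vehicle and 123 to 173 at 6 mg/kg, and 0 of 6 passed. The part of these cells in the members' values was not tested. Red cell transcripts had median log2 differences at 6 mg/kg of -2.77 in liver, -2.13 in prefrontal cortex and -1.36 in striatum over 3 genes, 0 of which passed in any tissue.

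The clock index, the log2 level of Dbp minus that of Arntl, 2 genes that cycle in opposite phase through the day, separated vehicle from every dosed group in liver. It was 2.04 to 5.45 in vehicle, 6.17 to 7.98 at 0.1 mg/kg, 5.76 to 8.60 at 1 mg/kg and 6.58 to 8.48 at 6 mg/kg. Dosing and this index therefore cannot be told apart fully in comparisons with vehicle. With the index as a covariate, the 6 mg/kg estimates became 2.42 for Gbp11, 0.48 for Gbp3 and 0.73 for Gbp10, and 0 members and 0 genes passed. At an unadjusted p under 0.05 were 0 of the 9 members without Gbp11 and 471 of the 12968 genes.

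In prefrontal cortex 0 of the 8 members tested passed at any dose, and the share of all 14838 genes that passed was 0% in each of the 3 comparisons (edgeR). The highest dose had 2 members and 9.27% of genes at an unadjusted p under 0.05, the middle dose 0 members and 8.29%, and the lowest dose 1 member and 6.43%. Gbp3 was 3.65, 2.81, 1.998 and 3.55 CPM in the vehicle libraries 8, 7, 4 and 3, and 4.49, 4.93, 4.22, 4.72, 4.37 and 4.83 in the 6 mg/kg libraries 58, 56, 55, 54, 53 and 52. The groups did not overlap, as in 1.19% of genes, and the log2 difference was 0.61 (SE 0.243, edgeR adjusted p = 0.44). Gbp2 went from 1.47 to 2.62 CPM in vehicle to 2.19 to 6.47 at 6 mg/kg, with overlap (log2 0.81, SE 0.348, edgeR adjusted p = 0.47). The other 6 members lay between -0.12 (Gbp9) and 0.82 (Gbp10).

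In striatum 0 of the 8 members passed either, and of 15118 genes 0% passed in each of the 3 comparisons (edgeR). With p unadjusted, 0 members were under 0.05 at any dose, while 15.7%, 7.36% and 2.53% of genes were, from the highest dose to the lowest. At 6 mg/kg the members lay between -0.05 (Gbp7) and 0.40 (Gbp2), 0 members had all dosed libraries above vehicle, and 1.67% of genes had. Ttr ran from 3.59 to 607 CPM in the vehicle and from 4.26 to 2418 in the 6 mg/kg libraries of striatum, and with its log2 level as a covariate, a fit chosen after seeing the data, 0 of the 8 members passed at any dose (edgeR, with 1 at an unadjusted p under 0.05 at 0.1 mg/kg and 0 at the others). At 0.1 mg/kg Gbp4 had the most negative estimate (-0.95, SE 0.466, edgeR adjusted p = 1.00). Gbp11 was counted in 1 to 13 reads per striatum library and 0 to 11 per prefrontal cortex library, and Gbp8 in 0 to 3 and 0 to 4, so a change of these 2 genes in brain could be detected only poorly at this depth. Mean Gbp11 in striatum was 0.413 ± 0.196 CPM in vehicle (SD, n = 4) and 0.583 ± 0.204 at 6 mg/kg (n = 6), and in prefrontal cortex 0.197 ± 0.269 and 0.302 ± 0.171.

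The interferon lists in brain gave 0 genes past the threshold at 6 mg/kg. The smallest p among the interferon targets were those of B2m, the MHC class I light chain, in prefrontal cortex (log2 0.38, SE 0.121, edgeR adjusted p = 0.35) and of Tap1, a peptide transporter, in striatum (0.64, SE 0.275, edgeR adjusted p = 0.27). Summed microglia markers were 233 to 262 CPM in vehicle prefrontal cortex and 246 to 271 at 6 mg/kg, and 230 to 327 and 247 to 333 in striatum. The part of microglia in these values was not tested.

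**Figure D4:**
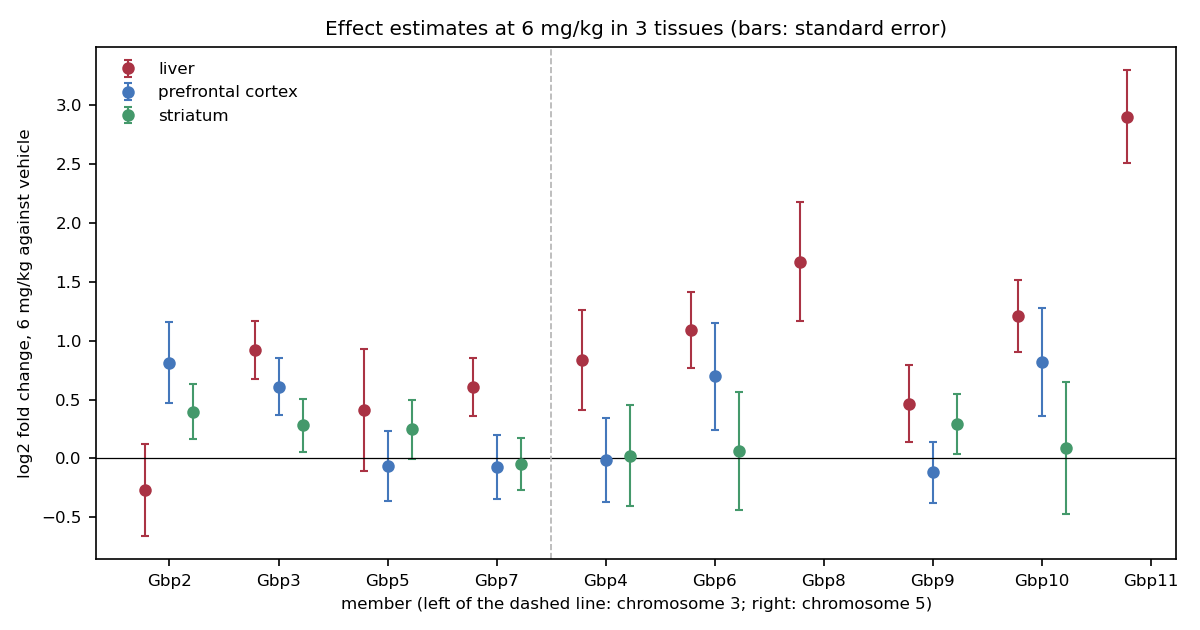
Log2 fold change at 6 mg/kg against vehicle for each member in liver, prefrontal cortex and striatum, with bars of ± 1 SE, chromosome 3 members left of the dashed line and chromosome 5 members right of it. Gbp11 and Gbp8 have a liver point only (2.90 and 1.67), and the brain points of the other members lie between -0.12 and 0.82.

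Whether liver responded differently from brain at 6 mg/kg was tested by an interaction term. For liver with prefrontal cortex 0 of the 8 members above the filter in both tissues passed, where 0.899% of 14351 genes did (edgeR), and 1 had an unadjusted p under 0.05, as had 19.97% of genes. That was Gbp7, with a log2 interaction of 0.66 (SE 0.312, edgeR adjusted p = 0.24). For liver with striatum 0 of the 8 passed in edgeR, where 0.0277% of 14454 genes did, and 1 had an unadjusted p under 0.05, as had 14.3% of genes. That was Gbp3 (0.62, SE 0.295, edgeR adjusted p = 0.34). Gbp8 and Gbp11 entered these fits through their liver reads and are not among the 8. The Gbp11 interaction was 2.23 (SE 1.24) with prefrontal cortex and 2.41 (SE 0.783) with striatum, given as a description since its liver values chose it. A difference in response between liver and brain was thus not shown for these 8 members at this number of libraries.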

How the data were processed

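The deposited tables hold whole-number counts of reads per Entrez gene for 62 libraries. The submitters' processing notes name FastQC, HISAT2 and the mm10 build. Per the labels, RNA was purified from TRIzol on spin columns, and poly(A) capture or rRNA depletion is named without saying which was used. The counting tool, its strand setting and its treatment of reads with several matches are not given in the sources used here. Nothing there states that libraries of a group come from separate animals, so p-values measure the spread between these libraries. No 2 libraries agreed within sampling noise.

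Counts of each tissue were fitted in edgeR 4.0.16 (R 4.3.3) with all dose groups in 1 model, filterByExpr, TMM scaling and the robust quasi-likelihood test. P-values were adjusted over all genes tested, at a threshold of 0.05. Tissue comparisons were fitted on both tissues' counts jointly. The script was tested on simulated data. DESeq2 1.42.0, sva 3.50.0, other filters and scalings, the clock index and leaving out single libraries were tried as alternatives. Levels per kb use GENCODE exons. The members, gene lists, named genes and tests were chosen with earlier results of these data known. Named were all members, up to 3 genes per list and tissue with the smallest p at 6 mg/kg, and the 5 genes with the highest r to Gbp11. Clec4f, Gbp2b and Ttr were named after their values were seen. A single-gene result among the lymphocyte markers is not reported here.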

Additional observations from a re-analysis of the deposited data

Results flagged for a closer look

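Among 104 combinations of member and group, 7 had 1 library whose gap to the nearest other exceeded Dixon's 95% critical value for the range of its group, where chance gives about 5.2. Gbp3 was 53.7 CPM in 6 mg/kg liver library 58, against 22.5 to 34.0 in the other 5. Gbp4 was 5.84 CPM in vehicle liver library 8, against 3.87 to 4.02. Gbp7 was 9.75 CPM in vehicle liver library 4, against 18.3 to 20.01, and this library also had the lowest Gbp3, Gbp6 and Gbp10 of the vehicle livers. Gbp6 was 1.64 CPM in vehicle prefrontal cortex library 3, against 0.315 to 0.540. In striatum, Gbp10 was 3.40 CPM in 6 mg/kg library 55, against 0.112 to 1.15, Gbp5 was 1.23 CPM in 1 mg/kg library 50, against 2.28 to 2.80, and Gbp9 was 1.29 CPM in 1 mg/kg library 41, against 2.99 to 3.70.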

How the results depend on the processing

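Of the 9 members without Gbp11, the 2 called in liver at 6 mg/kg became 4 with DESeq2 (with Gbp6 and Gbp8), 0 with 1 surrogate variable, with only the 2 groups compared or with the clock index, and 0 to 4 when single libraries were left out. Counted with Gbp11, which was picked on these values and adds no test, the 3 became 5, 1, 1 and 0 in this order, and 1 to 5. Over all genes the 363 calls ranged from 0 (clock index) to 1138 (DESeq2), and from 3 (without vehicle library 4) to 1302 (without 6 mg/kg library 56). The cause was not tested. Between 6 and 0.1 mg/kg DESeq2 called 143 genes and 0 of these 9, and with Gbp11 the count was 1. Gbp2 in liver turned to 0.055 with a surrogate variable and 0.21 with the clock index, and Gbp4 in striatum to -0.19 with a surrogate variable and -0.086 with the Ttr level.

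Estimates near 0 changed sign when single libraries were left out, in prefrontal cortex for Gbp4 (-0.27 to 0.21), Gbp5 (-0.18 to 0.11), Gbp7 (-0.17 to 0.020) and Gbp9 (-0.24 to 0.16) and in striatum for Gbp4 (-0.086 to 0.25), Gbp6 (-0.40 to 0.28), Gbp7 (-0.19 to 0.14) and Gbp10 (-0.75 to 0.33). None of these had passed. The number in the titles recurs across tissues, and the labels do not say that it marks a mouse. Same-numbered deviations correlated at 0.0063 between liver and prefrontal cortex, 0.0052 between liver and striatum and 0.113 between the brain regions. With that number as a replicate block, the members called stayed at 7 of the 8 above the filter in both tissues (vehicle liver against prefrontal cortex) and 0 (the other 3 comparisons across tissues), while calls over all genes fell from 129 to 2 and from 4 to 0 in the interactions. Few reads limit Gbp5 in liver (3 to 36 per library), Gbp8 and Gbp11 in brain, and Gbp6 and Gbp10 in vehicle prefrontal cortex.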
